A study of Mus musculus with 168 samples.

Results

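The transcription factor genes Isl1, Isl2, Mnx1, Lhx3, Lhx4, Phox2a, Tbx20, Foxp1 and Pou4f1 were followed across 6 neuron populations of the mouse brain and spinal cord. They were taken by name, as 9 of 39410 rows of the expression table, because they are known to set or mark the identity of motor neurons or of red nucleus neurons. Neurons were cut by laser from frozen sections of red nucleus, of the oculomotor and trochlear nuclei (together the ocular population), of the facial, vagus and hypoglossal nuclei, and of the lumbar spinal cord. The mice were delta7 mice with spinal muscular atrophy (SMA), of genotype Smn-/-/SMN2+/+/SMN∆7+/+, and littermate controls of genotype Smn+/+/SMN2+/+/SMN∆7+/+, at postnatal days 2, 5 and 10. Both genotypes carry the same human SMN transgenes and differ in the mouse gene, Smn1. There were 168 libraries of about 150 pooled cells, each from 1 of 34 mice (15 control, 19 SMA), and averaging libraries of the same mouse and population gave 72 control and 88 SMA samples in 36 groups of 3 to 7 mice. Some ocular libraries, all of day 5 or day 10, came from the oculomotor or the trochlear nucleus alone. The ocular samples of control mouse 29 (day 5) and SMA mouse 258 (day 10) held the oculomotor nucleus only. Nucleus and age were therefore not fully separate in that population. Values are RPKM, read counts scaled to gene length and library size, so that levels can be set beside each other between genes.

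Motor neurons of the spinal cord and brainstem are specified in the embryo by combinations of LIM homeodomain proteins (Isl1, Isl2, Lhx3 and Lhx4) with the homeodomain protein Mnx1, also known as Hb9. Isl1 and Lhx3 form a complex that switches on cholinergic genes. Foxp1, a forkhead protein, marks motor neurons of the limb-innervating columns, where it works with Hox proteins. Branchial and visceral motor neurons of the hindbrain, which innervate branchial arch muscles and parasympathetic ganglia, use another set that includes the homeodomain protein Phox2a and the T-box protein Tbx20. Phox2a is also required for the birth of oculomotor and trochlear neurons. Pou4f1, also known as Brn3a, is a POU homeodomain protein of red nucleus neurons and of many sensory neurons, and red nucleus neurons are not motor neurons.

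A pair of paralogs and a pair of genes with a shared pattern are shown first by the 250 bases before their RefSeq transcription start (GRCm38.p6), written 5′ to 3′ on the gene's strand. Isl1 and Isl2 are close paralogs whose levels moved in opposite directions with age in lumbar and facial neurons of controls. Phox2a and Tbx20 were both high in facial and vagus neurons. Capitals mark CCAAT boxes on either strand (ATTGG where it lies on the other strand). The coordinates are chr13:116309689-116309938 on the minus strand for Isl1, chr9:55540899-55541148 on the plus strand for Isl2, chr7:101818063-101818312 on the plus strand for Phox2a and chr9:24774304-24774553 on the minus strand for Tbx20.
Isl1: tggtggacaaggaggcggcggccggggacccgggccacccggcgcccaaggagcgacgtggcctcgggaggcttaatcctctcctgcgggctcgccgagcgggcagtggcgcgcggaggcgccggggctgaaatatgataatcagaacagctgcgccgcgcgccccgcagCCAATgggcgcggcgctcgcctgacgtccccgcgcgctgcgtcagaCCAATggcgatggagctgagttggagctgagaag
Isl2: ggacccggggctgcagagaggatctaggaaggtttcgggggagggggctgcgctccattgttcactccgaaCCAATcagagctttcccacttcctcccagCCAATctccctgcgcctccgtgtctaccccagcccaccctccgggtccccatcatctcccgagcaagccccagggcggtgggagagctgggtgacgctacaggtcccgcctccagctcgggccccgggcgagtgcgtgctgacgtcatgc
Phox2a: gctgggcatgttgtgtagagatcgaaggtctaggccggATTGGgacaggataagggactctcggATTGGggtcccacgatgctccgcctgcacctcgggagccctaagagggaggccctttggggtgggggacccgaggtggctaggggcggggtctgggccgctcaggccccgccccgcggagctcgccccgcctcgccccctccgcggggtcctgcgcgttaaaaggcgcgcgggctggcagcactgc
Tbx20: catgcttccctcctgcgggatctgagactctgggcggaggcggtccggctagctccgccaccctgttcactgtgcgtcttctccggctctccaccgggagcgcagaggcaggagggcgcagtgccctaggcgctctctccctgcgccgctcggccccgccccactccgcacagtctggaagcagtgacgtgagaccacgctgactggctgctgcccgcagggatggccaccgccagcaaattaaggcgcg
G or C made up 71.2% of these bases in Isl1, 66.8% in Isl2, 70.4% in Phox2a and 68.8% in Tbx20. Promoters of all 9 genes were in the RefSeq table, with 12 start sites, of which Lhx3 has 2 and Foxp1 has 3. Windows from 250 bases before to 50 bases after the start were searched on both strands, in the members and in all 32851 promoters of the table, whose median GC content was 52.7%. The homeodomain core TAATTA was in 5.29% of all promoters, the palindromic homeodomain dimer site, in which TAAT and ATTA are separated by 3 bases, in 0.487%, the T-box site GGTGTGA in 3.98% and the forkhead site TGTTTAC in 3.65%. Among the 12 member start sites 1 of these motifs was found, TAATTA at the second start site of Foxp1. CCAAT, added to the search after the sequences had been read, was in 37.4% of all promoters. It was found in Isl1, at 80 and 34 bases before the start, in Isl2, at 179 and 150, in Mnx1, in Phox2a and at the third start site of Foxp1. These matches describe the letters only.

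The genes lie on separate chromosomes except Isl2 and Tbx20, and all are protein coding. Positions are from GENCODE M21 (GRCm38) and are not the authors'. Isl1 is at chr13:116298281-116309689 (minus strand), Isl2 at chr9:55538672-55546180 (plus), Mnx1 at chr5:29473034-29478470 (minus) and Lhx3 at chr2:26200212-26208289 (minus). Lhx4 is at chr1:155698031-155751684 (minus), Phox2a at chr7:101818313-101822726 (plus) and Tbx20 at chr9:24718138-24774303 (minus). Foxp1 is at chr6:98925338-99522721 (minus) and Pou4f1 at chr14:104461676-104467999 (minus). Exons of Phox2a overlap those of Inppl1, a gene of the same table, and whether reads were counted by strand is not given in the sources used here. Exons of Lhx3 overlap the gene model Gm27196 and those of Foxp1 the models Gm20696 and Gm49348, which have no row in the table.

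The libraries held 0.342 M to 16.3 M reads (median 5.89 M), as recovered from the read steps of the table, and 12121 to 18419 genes above 0. The shallowest was the red nucleus library of control mouse 252 at day 10. Smn1 checked the genotype labels: controls had 4.32 to 63.3 RPKM, and SMA samples at most 4.24, with 0 in 70 of 88. Chat, the acetylcholine-synthesising enzyme of motor neurons, was above 0 in all samples of the 5 motor populations. In red nucleus it was at 0 in 16 of 23 samples and at most 1.72 RPKM, while the glutamate transporter Slc17a6 was at 121 to 250 and the midbrain factor Foxa2 at 30.4 to 84.5. Vagus samples also held Th at 12.5 to 92.1 and Dbh at 3.49 to 91.2, genes that define noradrenergic and dopaminergic neurons. Th was not limited to vagus samples. It reached 19.1 in ocular samples and 96.3 in red nucleus samples, 17 of 23 of which were at 0. In bulk samples of pooled cells, fewer cells of a type and less RNA per cell cannot be told apart. Differences below are on the log2(RPKM + 1) scale, which understates changes of low values, with the SE from limma, and p-values are adjusted by Benjamini and Hochberg over all genes of the contrast. Each mouse counts once per population.

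The first question was where each factor was expressed. Foxp1 was present in all 6 populations and Isl1 in all 5 motor populations, and the other members were more restricted. Pou4f1 was high in red nucleus, Lhx4 in ocular neurons, Phox2a and Tbx20 in facial and vagus neurons, and Isl2 and Mnx1 in hypoglossal and lumbar neurons. These patterns were seen in both genotypes. All 15 pairs of populations were compared for each gene. Of the 135 member tests 91 passed an adjusted p of 0.05 in controls and 89 in SMA, against 17.7% of all gene tests in controls and 19.5% in SMA. The 2 genotypes shared 83 of these calls, all 83 with the same direction.

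**Figure D1:**
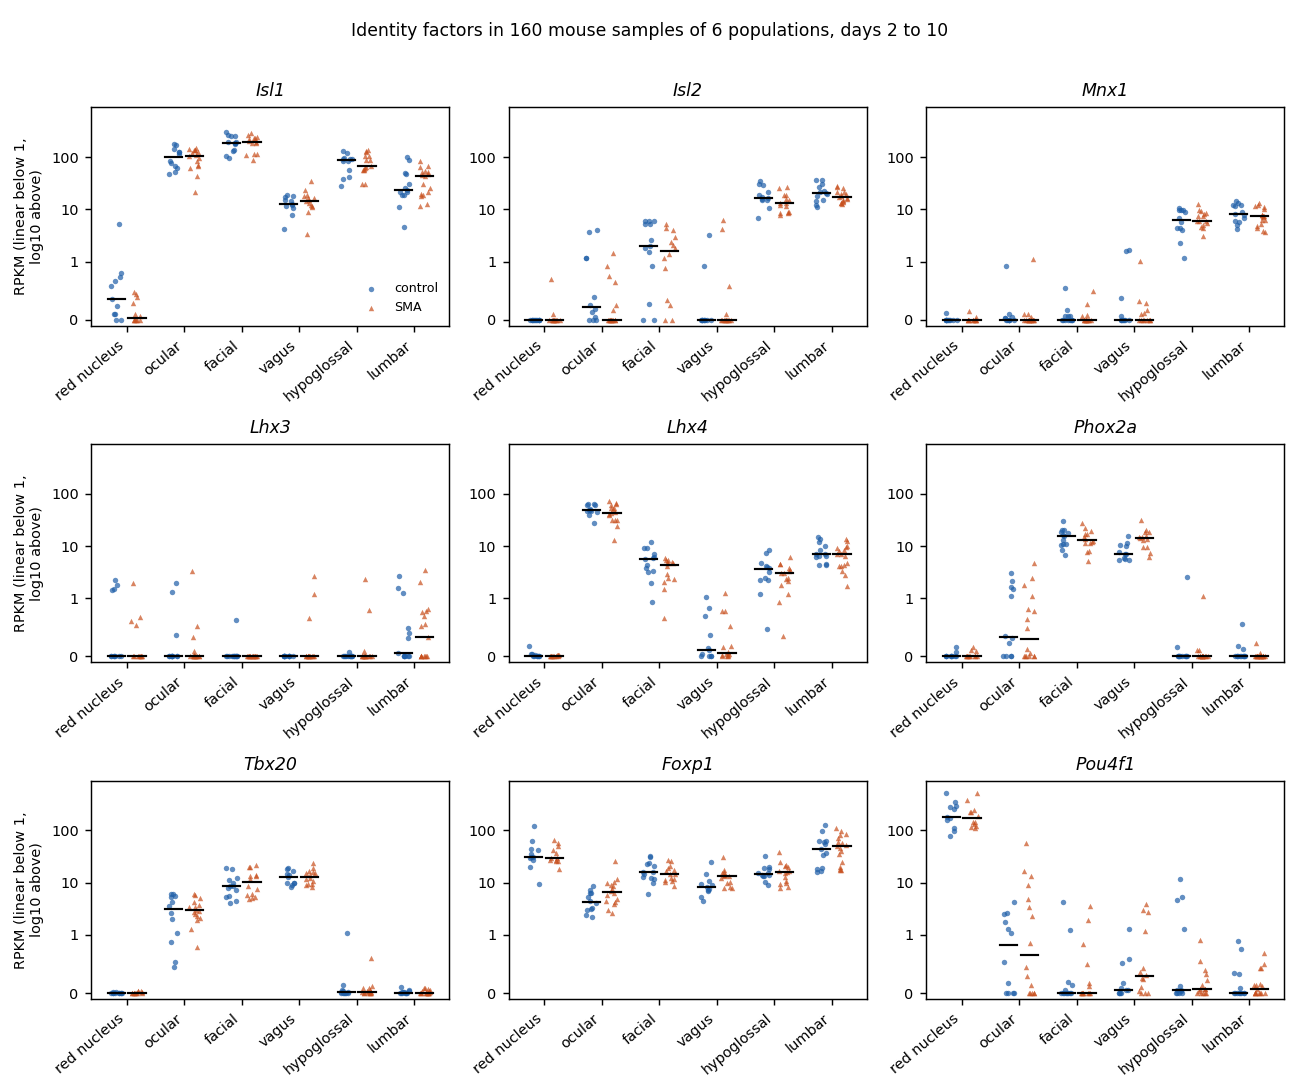
Level of each of the 9 genes in every mouse sample, by population, in RPKM on an axis that is linear below 1 and log10 above it. Blue circles are control and orange triangles SMA samples, and black bars are group medians over all days. Pou4f1 is high in red nucleus, Lhx4 in ocular neurons, Isl2 and Mnx1 in hypoglossal and lumbar neurons, and Phox2a and Tbx20 in facial and vagus neurons.

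Isl1, the LIM factor shared by motor neurons, was present in every sample of the 5 motor populations. Controls had 191.9 ± 64.5 RPKM in facial neurons (SD, n = 13), 103.9 ± 45.4 in ocular (n = 12), 79.8 ± 32.3 in hypoglossal (n = 12), 35.7 ± 29.3 in lumbar (n = 13) and 13.03 ± 4.39 in vagus neurons (n = 11). The order was the same in SMA, with 191.6 ± 63.0 (n = 14), 101.1 ± 39.2 (n = 16), 80.5 ± 34.4 (n = 15), 39.5 ± 21.7 (n = 17) and 15.6 ± 7.25 (n = 14). The step from facial to ocular neurons in controls was lost with a pseudocount of 0.1 (adjusted p 0.0502). In each genotype 4 of the 5 steps of this order passed, the exception being ocular against hypoglossal neurons (limma adjusted p 0.308 in controls and 0.361 in SMA). The step from lumbar to vagus neurons was 1.09 ± 0.23 in controls (adjusted p 9.48e-05). Red nucleus, the lowest, was at 0 to 0.798 RPKM in 10 of 11 controls, and the remaining one, mouse 252 of the shallowest library, was at 5.32. A floor of 3 reads in that library is 3.49 RPKM, above every other red nucleus value of Isl1.

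Isl2 and Mnx1, homeodomain factors of somatic motor neurons, shared a restricted pattern. Isl2 was at 21.9 ± 8.38 RPKM in lumbar (SD, n = 13) and 19.5 ± 8.51 in hypoglossal controls (n = 12), and Mnx1 at 8.99 ± 3.42 and 6.50 ± 3.23. For neither gene did these populations differ past the threshold (limma adjusted p 0.758 for Isl2 and 0.0634 for Mnx1), and the difference for Mnx1 was 0.52 ± 0.19. The step down to the next population was 2.53 ± 0.25 for Isl2 (facial, adjusted p 2.77e-12) and 2.42 ± 0.20 for Mnx1 (vagus, adjusted p 6.5e-16). Facial neurons held some Isl2, at 2.91 ± 2.45 (n = 13), while Mnx1 was at 0 in 8 of 13 facial controls and at most 0.541. Ocular neurons, which are somatic motor neurons too, had Mnx1 at 0 in 7 of 12 controls, and the highest value was 0.926. Mnx1 of hypoglossal and lumbar controls did pass with the mouse as a block (adjusted p 0.0246).

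Lhx4, a LIM factor of motor neuron progenitors and early motor neurons, was highest in ocular neurons. Controls had 50.6 ± 11.1 RPKM there (SD, n = 12) and SMA mice 44.9 ± 16.3 (n = 16), and every ocular sample but 1 lay above the highest value of any other population, 15.1 in a lumbar control. The exception was the ocular sample of SMA mouse 250, at 13.3. Lumbar controls had 8.09 ± 3.57 (n = 13), facial 5.61 ± 3.17 (n = 13) and hypoglossal 3.70 ± 2.32 (n = 12), and the step from ocular to lumbar neurons was 2.56 ± 0.18 (limma adjusted p 4.07e-18). Lumbar, facial and hypoglossal neurons were not separated from their neighbours in controls (adjusted p 0.0682 and 0.0804), while in SMA lumbar lay above facial neurons (0.62 ± 0.17, adjusted p 0.00876), a call lost with a pseudocount of 0.1 (0.0753). Vagus and red nucleus samples were at most 1.25. In the 4 mice with separate libraries of both nuclei Lhx4 was similar: 42.2 in oculomotor and 54.2 in trochlear neurons of control mouse 30, 38.4 and 39.8 of control mouse 75, 50.4 and 44.5 of control mouse 254, and 35.0 and 45.4 of SMA mouse 196. Neither nucleus was the higher in all 4.

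Lhx3, the partner of Isl1 in embryonic spinal motor neurons, was near the detection limit. Vagus controls were all at 0, as were all SMA facial samples, and the highest of all 160 samples was 3.45 RPKM in a lumbar SMA sample. No neighbouring populations in the order of Lhx3 differed past the threshold in either genotype. Of all 15 pairs 6 were called in controls and 1 in SMA.

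Phox2a and Tbx20, of the branchial and visceral programme, were found together in facial and vagus neurons. Phox2a was at 15.4 ± 6.32 RPKM in facial (SD, n = 13) and 8.36 ± 3.26 in vagus controls (n = 11), against 14.4 ± 6.02 (n = 14) and 14.96 ± 6.48 (n = 14) in SMA. Facial lay above vagus in controls (0.74 ± 0.21, limma adjusted p 0.00532), a call lost with a pseudocount of 0.1 (adjusted p 0.249), and the populations did not differ past the threshold in SMA (adjusted p 0.814). Ocular neurons had little Phox2a after birth, 0.861 ± 1.02 in controls (n = 12), with 4 of 12 at 0. Tbx20 was at 13.01 ± 3.92 in vagus and 9.43 ± 4.91 in facial controls, which missed the threshold (adjusted p 0.0584) but passed with the mouse as a block (0.0485). It was also present in ocular neurons, at 3.22 ± 2.23 (n = 12), which exceeded hypoglossal neurons by 1.73 ± 0.20 (adjusted p 4.24e-10). Hypoglossal, lumbar and red nucleus controls were at or near 0, with a highest value of 1.08 for Tbx20 and 2.52 for Phox2a.

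Foxp1 was measured in every sample of every population. It was at 49.98 ± 33.0 RPKM in lumbar (SD, n = 13) and 41.2 ± 30.1 in red nucleus controls (n = 11), which did not differ past the threshold (limma adjusted p 0.503). Red nucleus exceeded facial neurons, with 17.7 ± 7.98 (n = 13), by 1.07 ± 0.21 (adjusted p 8.63e-05). Hypoglossal neurons had 16.3 ± 6.14, vagus 9.82 ± 5.63, and ocular neurons, the lowest, 4.70 ± 2.05. The table has 3 rows for Foxp1, and the one used holds nearly all of its signal; the others were above 0 in 1 and in 3 of 168 libraries.

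Pou4f1 set red nucleus apart. Red nucleus had 227.8 ± 132.3 RPKM in controls (SD, n = 11) and 213.0 ± 120.3 in SMA (n = 12), and the lowest of the 23 samples was 77.7. The next population lay 6.76 ± 0.34 lower in controls (hypoglossal, limma adjusted p 3.7e-25) and 5.92 ± 0.34 lower in SMA (ocular, adjusted p 8.05e-26). Motor neuron samples of controls were at 0 to 11.9, the highest a hypoglossal one. Among SMA samples ocular neurons were the exception, reaching 57.4 in mouse 250.

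Genes with the most similar pattern were sought by Pearson's r over the 18 control group means of population and day, among 9358 genes with a mean of at least 10 RPKM in 1 group. The group means share mice and libraries, so r describes these groups only. Mnx1 and the thyrotropin-releasing hormone receptor gene Trhr were closest to Isl2, with r of 0.91 and 0.95, together with A730046J19Rik (0.90), and the same genes were closest to Mnx1. Acly, which makes cytosolic acetyl-CoA, was among the 3 closest to Lhx4 (0.90, with Nhsl1 at 0.91 and Nos1ap at 0.89). The T-box genes Tbx2 (0.93) and Tbx3 (0.92) and the secreted protein gene Scube1 (0.92) were closest to Phox2a, while 2700069I18Rik and Zfhx4 (0.93 each) followed Tbx20. Isl1 went with Spock3 (0.90), Lypd1 and Ephb1 (0.88 each), Foxp1 with the guidance protein gene Reln (0.83), Tmem132c (0.82) and Rnf126 (0.80), and Pou4f1 with the non-coding RP24-312G4.2 (0.99), the chemokine Cxcl13 and the midbrain factor Foxa1 (0.98 each).

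The second question was how the factors changed between postnatal days 2 and 10. Isl1 fell with age in ocular, facial, hypoglossal and lumbar neurons of both genotypes. Its call in lumbar SMA neurons was lost in 13 of 19 alternatives. Foxp1 fell and Lhx4 rose past the threshold in lumbar neurons of both genotypes. No member changed past the threshold in vagus neurons, which does not show that their levels were stable. Vagus controls of day 2 numbered 3, the fewest mice of any group. Of 36 member tests 12 were called in controls (5 higher and 7 lower at day 10) and 8 in SMA (2 higher and 6 lower), where 7.06% of all gene tests were called in controls and 7.39% in SMA. The median difference over the 36 member tests was -0.14 in controls and -0.13 in SMA, while the median over all genes lay between -0.10 and 0.06 in the contrasts of controls and between -0.08 and 0.04 in those of SMA. A member was tested only where the number of samples with 1 RPKM or more reached the size of the smallest group, so these counts leave out members that were near 0. The genotypes shared 6 calls, all with the same direction. All 6 calls found in controls alone had the same direction in SMA, and both found in SMA alone had it in controls; no test of the difference in age change between genotypes passed (below).

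**Figure D2:**
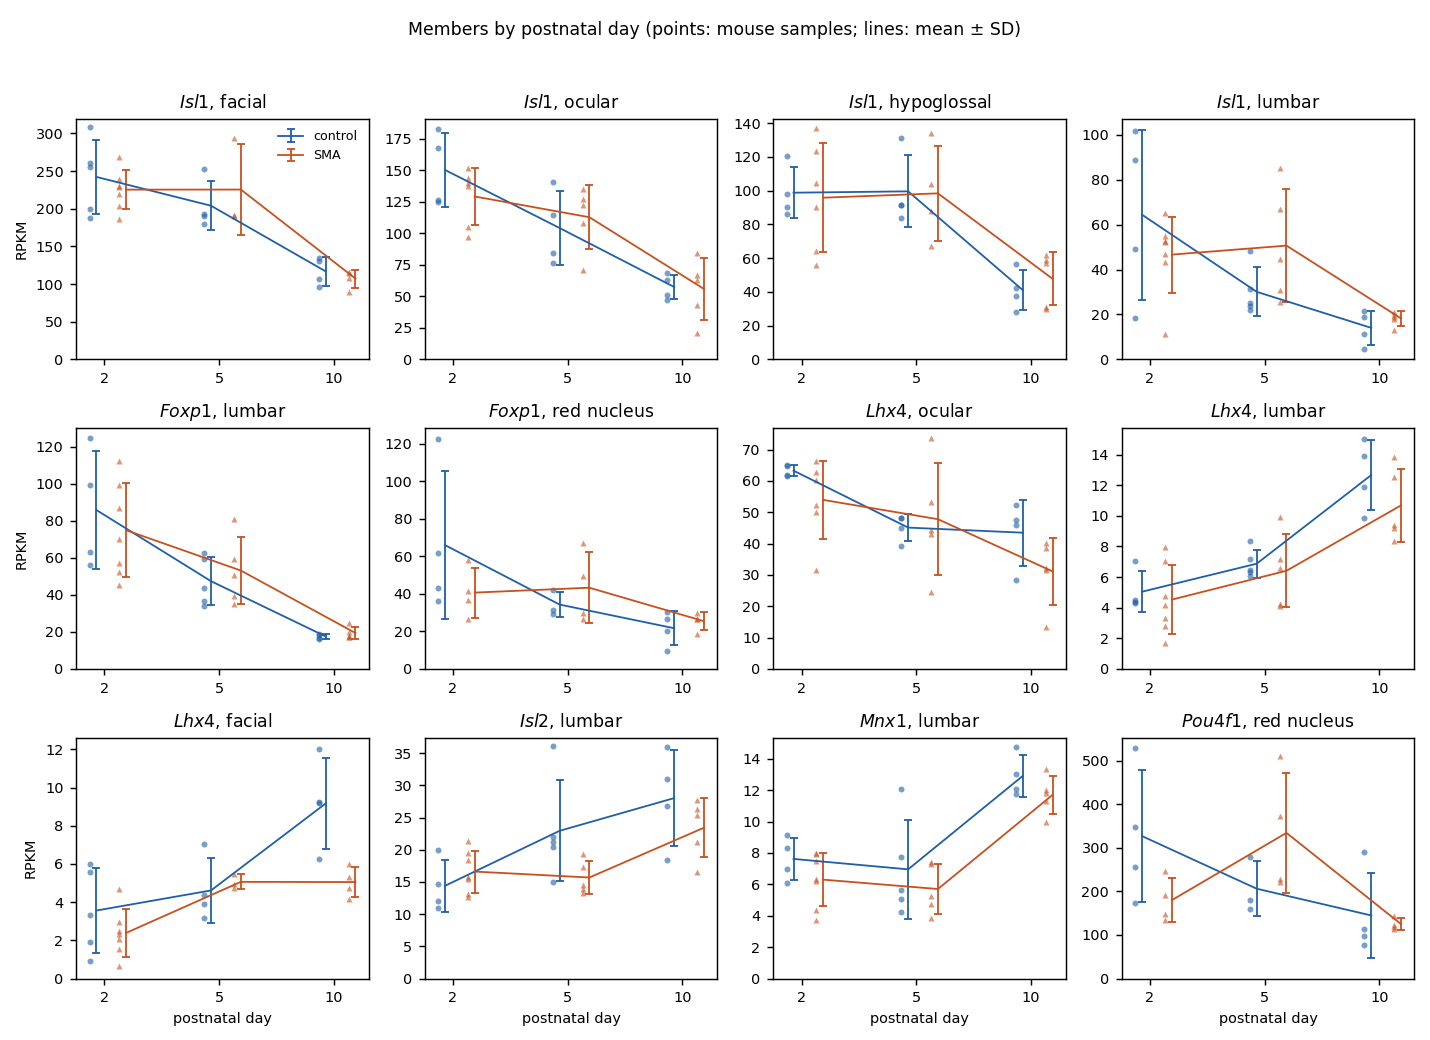
RPKM against postnatal day for 12 pairs of gene and population, each point a mouse sample and each line the mean ± SD of control (blue) or SMA (orange) samples. Isl1 and Foxp1 lie lower at day 10 than at day 2, and Lhx4, Isl2 and Mnx1 of lumbar neurons lie higher.

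Isl1 fell in facial neurons, where its adjusted p was lower than in the other populations. Controls had 188, 199, 255, 261 and 309 RPKM at day 2 and 95.7, 106, 131 and 135 at day 10, and SMA mice had 186 to 268 (median 229, n = 7) at day 2 and 89.9, 109, 115 and 116 at day 10. The days did not overlap in either genotype, and values at day 5 (180 to 253 in controls) lay near those of day 2. The change was -1.04 ± 0.17 in controls (limma adjusted p 0.000273) and -1.06 ± 0.16 in SMA (adjusted p 7.97e-05).

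Ocular neurons showed a fall of Isl1 of similar size. Controls had 125, 126, 167 and 183 RPKM at day 2 and 47.0, 51.3, 62.9 and 68.2 at day 10, and SMA mice 96.96 to 151 (median 139, n = 6) and 21.1, 43.3, 62.8, 67.2 and 84.5. Again the days did not overlap in either genotype. The change was -1.37 ± 0.29 in controls (limma adjusted p 0.00302) and -1.32 ± 0.25 in SMA (adjusted p 0.000916).

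Hypoglossal and lumbar neurons followed. Hypoglossal controls had 86.3, 90.4, 98.1 and 120.5 RPKM at day 2 and 27.8, 37.8, 42.1 and 56.5 at day 10, without overlap, a change of -1.28 ± 0.28 (limma adjusted p 0.00656). In SMA the change was -0.99 ± 0.24 (adjusted p 0.0171), and mice 206 and 211, at 55.7 and 64.2, were low at day 2. Lumbar controls spread widely at day 2, at 18.6, 49.0, 88.7 and 102, and had 4.596, 11.2, 18.7 and 21.6 at day 10, so that the lowest young sample lay within the older ones. The lumbar change was -2.05 ± 0.48 in controls (adjusted p 0.00408) and -1.19 ± 0.40 in SMA (adjusted p 0.0374), and the SMA call was lost in 13 of 19 alternatives. The days overlapped in lumbar SMA samples too: mouse 206 at day 2, at 11.4, lay below the day 10 range of 12.96 to 21.3. In vagus neurons the change of Isl1 was 0.07 ± 0.45 in controls and -0.03 ± 0.36 in SMA. In controls the change in vagus neurons minus that in lumbar neurons was 2.12 ± 0.57 (limma adjusted p 0.0455). This test of age change between pairs of populations was added after the data were seen; it was called for members in 9 of 135 tests in controls and 8 of 135 in SMA, against 0.763% and 0.829% of all gene tests.

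Foxp1 had the lowest adjusted p of all member age tests, in lumbar neurons of both genotypes. Controls had 56.0, 63.2, 99.2 and 124 RPKM at day 2, 34.2 to 62.4 at day 5 and 16.0, 16.7, 18.6 and 18.9 at day 10. SMA mice had 45.5 to 112 (median 70.2, n = 7) at day 2 and 17.1, 17.3, 18.0, 19.7 and 24.6 at day 10. The days did not overlap in either genotype, and the day 10 samples were close together. The change was -2.15 ± 0.27 in controls (limma adjusted p 1.7e-06) and -1.84 ± 0.23 in SMA (adjusted p 7.96e-07), and both calls were kept under every alternative run. Foxp1 fell in red nucleus of controls too, from 36.1, 43.3, 61.9 and 122 to 9.52, 20.1, 26.7 and 30.3 (-1.51 ± 0.38, adjusted p 0.0101), with -0.62 ± 0.38 in SMA (adjusted p 0.41). The change in vagus neurons minus that in lumbar neurons was 2.35 ± 0.54 in controls (adjusted p 0.0113) and 1.94 ± 0.42 in SMA (adjusted p 0.00394), and ocular and lumbar neurons also differed in both genotypes.

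Lhx4 rose in lumbar neurons of both genotypes. In lumbar controls it was at 4.28, 4.35, 4.495 and 7.06 RPKM at day 2, 6.09 to 8.34 at day 5 and 9.88, 11.9, 13.9 and 15.1 at day 10. Lumbar SMA samples went from 1.69 to 7.97 (median 4.15, n = 7) to 8.38, 9.23, 9.43, 12.5 and 13.9. In both genotypes every day 10 sample lay above every day 2 sample, with changes of 1.18 ± 0.29 in controls (limma adjusted p 0.00624) and 1.16 ± 0.24 in SMA (adjusted p 0.000891). Facial controls rose from 0.937, 1.93, 3.34, 5.58 and 6.01 to 6.23, 9.17, 9.22 and 12.03 (1.28 ± 0.36, adjusted p 0.0343), a call lost in 8 of 16 alternatives. Hypoglossal means went from 2.26 to 5.68 in controls and from 1.82 to 4.22 in SMA, where the days did not overlap, but neither change was called. The age change of Lhx4 in hypoglossal neurons did not differ past the threshold from that in lumbar neurons in either genotype.

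In ocular neurons Lhx4 was called in SMA alone. SMA mice had 31.6 to 66.2 RPKM (median 56.4, n = 6) at day 2 and 13.3, 31.4, 32.1, 38.6 and 40.2 at day 10, a change of -0.83 ± 0.25 (limma adjusted p 0.0455). The lowest was again mouse 250, and without its ocular sample the change was -0.56 (adjusted p 0.172). The call was lost in 13 of 19 alternatives. Controls had 61.5, 61.8, 64.6 and 65.1 at day 2 and 28.2, 45.9, 47.4 and 52.3 at day 10, with no overlap but a change of -0.57 ± 0.30 that did not pass (adjusted p 0.273). The age change of Lhx4 in ocular neurons differed from that in facial neurons, by -1.85 ± 0.44 in controls (adjusted p 0.0346) and -1.74 ± 0.40 in SMA (adjusted p 0.0285), and in SMA from that in hypoglossal and lumbar neurons as well.

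Isl2 and Mnx1 rose in lumbar neurons. Isl2 went in controls from 10.9, 12.03, 14.6 and 20.0 RPKM at day 2 to 18.4, 26.8, 31.0 and 36.0 at day 10 (0.91 ± 0.23, limma adjusted p 0.00876), where the lowest day 10 sample was again mouse 252 and lay within the day 2 range. The SMA change was 0.47 ± 0.19 (adjusted p 0.0938). Mnx1 went in SMA from 3.74 to 7.99 (median 6.34, n = 7) to 10.0, 11.3, 11.8, 12.01 and 13.4 (0.83 ± 0.21, adjusted p 0.00481). In controls Mnx1 went from 6.10, 6.96, 8.30 and 9.13 to 11.8, 12.1, 13.0025 and 14.8, also without overlap, but did not pass (0.70 ± 0.25, adjusted p 0.0692). Isl2 also rose in facial controls, from 0, 0.268, 0.930, 1.51 and 2.03 to 5.33, 5.96, 6.01 and 6.06 (1.93 ± 0.54, adjusted p 0.0306); this call was lost in 8 of 16 alternatives, among them a pseudocount of 0.1, where the difference was 3.16 with an adjusted p of 0.134.

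Red nucleus neurons of controls changed in Pou4f1 and Lhx3 besides Foxp1. Pou4f1 had 173, 257, 349 and 528 RPKM at day 2 and 77.7, 97.5, 113 and 291 at day 10, a change of -1.25 ± 0.36 (limma adjusted p 0.0249) in which mouse 247, at 291, overlapped the younger mice. This call was lost in 8 of 16 alternatives. In SMA Pou4f1 was highest at day 5, at 223 to 512, and changed by -0.49 ± 0.36 from day 2 to day 10 (adjusted p 0.53). Lhx3 was at 0 in all 7 controls of days 2 and 5 and at 1.47, 1.52, 1.76 and 2.23 at day 10, a change of 1.45 ± 0.29 (adjusted p 0.00212). The 1.76 came from mouse 252, where 3 reads of Lhx3 are worth 5.29 RPKM, and without that sample the change was 1.44 (adjusted p 0.00596). The day 10 controls alone were enough to take Lhx3 past the filter. It was thus admitted to the test by the group where it was high. The call was kept under every alternative, among them no filter.

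**Figure D3:**
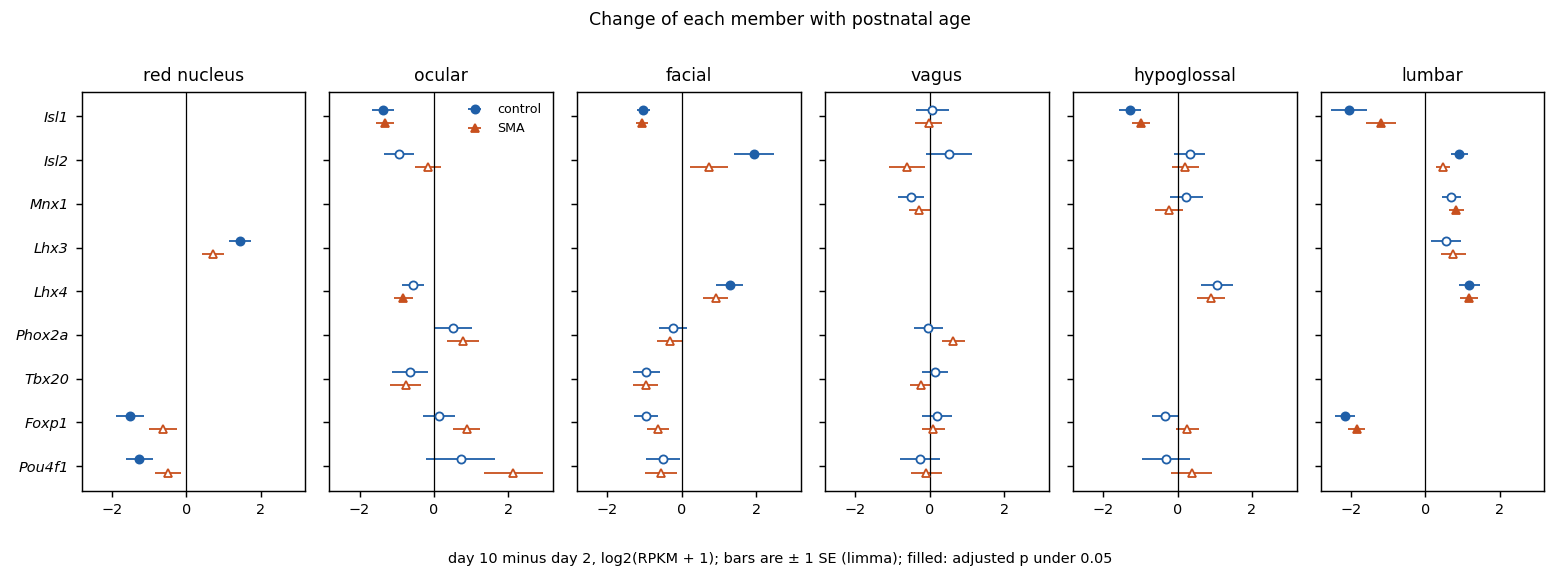
Day 10 minus day 2 difference of each member that passed the filter, on the log2(RPKM + 1) scale with ± 1 SE from limma, for controls (circles) and SMA (triangles) in each population. Filled symbols have an adjusted p under 0.05; none is filled in vagus neurons, and Isl1 is filled to the left of 0 in ocular, facial, hypoglossal and lumbar neurons.

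Phox2a and Tbx20 did not change past the threshold with age in any population. Tbx20 of facial neurons came closest, from 7.29, 7.77, 8.57, 11.4 and 19.3 RPKM in controls at day 2 to 4.05, 4.45, 5.28 and 5.45 at day 10, with no overlap. Its change was -0.95 ± 0.36 in controls (limma adjusted p 0.132) and -0.97 ± 0.33 in SMA (adjusted p 0.0801).

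Myelin genes moved with age in the same samples. The summed level of 4 oligodendrocyte markers, all in the table and including Mbp, Mobp and Mog, was 5.67 to 33.8 RPKM in lumbar controls at day 2 and 404 to 842 at day 10. Median sums went from 9.04 to 316 in ocular, 8.31 to 181 in facial, 40.7 to 323 in hypoglossal and 3.33 to 340.2 in red nucleus controls. Vagus neurons, where no member was called, had medians of 29.7 and 24.8 in controls and 18.3 and 33.8 in SMA. Over the populations 20 of 23 tests of these genes were called higher at day 10 in controls and 16 of 23 in SMA, 0 lower. The share of all gene tests called was 7.06% in controls and 7.39% in SMA. Astrocyte genes were called in both directions. Slc1a2 rose in 4 populations of SMA and 1 of controls, and Slc1a3 fell in 2 of controls and 1 of SMA. The part of myelin and astrocyte genes in the age changes of the members was not tested. In hypoglossal SMA samples all 4 GABA and glycine genes tested also rose with age, with a summed median of 8.92 at day 2 and 73.8 at day 10, and their part in the fall of Isl1 there was not tested.

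Other genes of the same programmes were read from lists chosen by function. Of 26 other motor neuron transcription factors and cofactors 25 were in the table. Over 115 tests 3 were higher and 5 lower at day 10 in controls, with a median difference of -0.20. In SMA 3 were higher and 12 lower, with a median of -0.15. Of all gene tests 7.06% were called in controls and 7.39% in SMA, and the count of this list in controls lay near that share. Nkx6-1, a homeodomain factor of motor neuron progenitors, fell in lumbar neurons by 2.59 in controls and 2.02 in SMA. Esrrb, an orphan nuclear receptor, rose in red nucleus by 2.24 in controls and 2.06 in SMA. Lmo4, a LIM-only protein that competes for LIM cofactors, fell there by 0.82 in controls and 0.85 in SMA. It rose in lumbar neurons of controls by 0.77. Gata3 was called in 2 populations of SMA, lower by 2.96 in red nucleus and higher by 1.94 in hypoglossal neurons. The retinoic acid enzyme Aldh1a2 of limb motor columns fell in lumbar neurons by 2.27 in controls, from a mean of 203 to 36.4 RPKM, and by 1.80 in SMA; it was 1 of 2 calls among 18 tests of 3 retinoid genes in controls and the only one in SMA. Other midbrain and red nucleus factors (10 of 10 in the table) had 0 of 26 calls in controls. In SMA 2 of 26 were called, both higher, which is near the share of all gene tests.

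Cholinergic genes, which Isl1 helps to switch on in the embryo, were called mostly in the upward direction in controls. Of the 7 genes on the list 6 were in the table. Among 35 tests 14 were higher and 1 was lower at day 10 in controls, with a median difference of 0.55. In SMA 4 were higher and 0 lower, with a median of 0.20. The share of all gene tests called was 7.06% in controls and 7.39% in SMA. Ache, which breaks down acetylcholine, and Acly rose in 4 populations of controls each, and Chat rose in 3. Lumbar controls went in Chat from 18.4 ± 3.77 RPKM at day 2 (SD, n = 4) to 41.8 ± 2.73 at day 10 (n = 4), and SMA samples from 17.9 ± 4.84 (n = 7) to 30.7 ± 4.75 (n = 5). Whether this list changed differently in the 2 genotypes was tested gene by gene, and 0 of 35 tests passed.

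The third question was whether SMA changed the factors. No member passed the threshold in any population on any day: 0 of 108 tests were called with limma, where 0.129% of all gene tests were. At an unadjusted p under 0.05 there were 8 of 108 (7.41%), near the 7.10% of all gene tests. The lowest adjusted p was 0.265. Differences ran from -1.07 to 1.84 with SE from 0.148 to 0.881, and the median absolute difference was 0.25. Members near 0 in a population were not tested there, which left 3 in red nucleus, 7 each in ocular, facial and vagus neurons and 6 each in hypoglossal and lumbar neurons. The change of the genotype difference from day 2 to day 10 was called in 0 of 36 tests, with 0 at an unadjusted p under 0.05 and a lowest adjusted p of 0.771, against 0.0415% of all gene tests called.

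**Figure D4:**
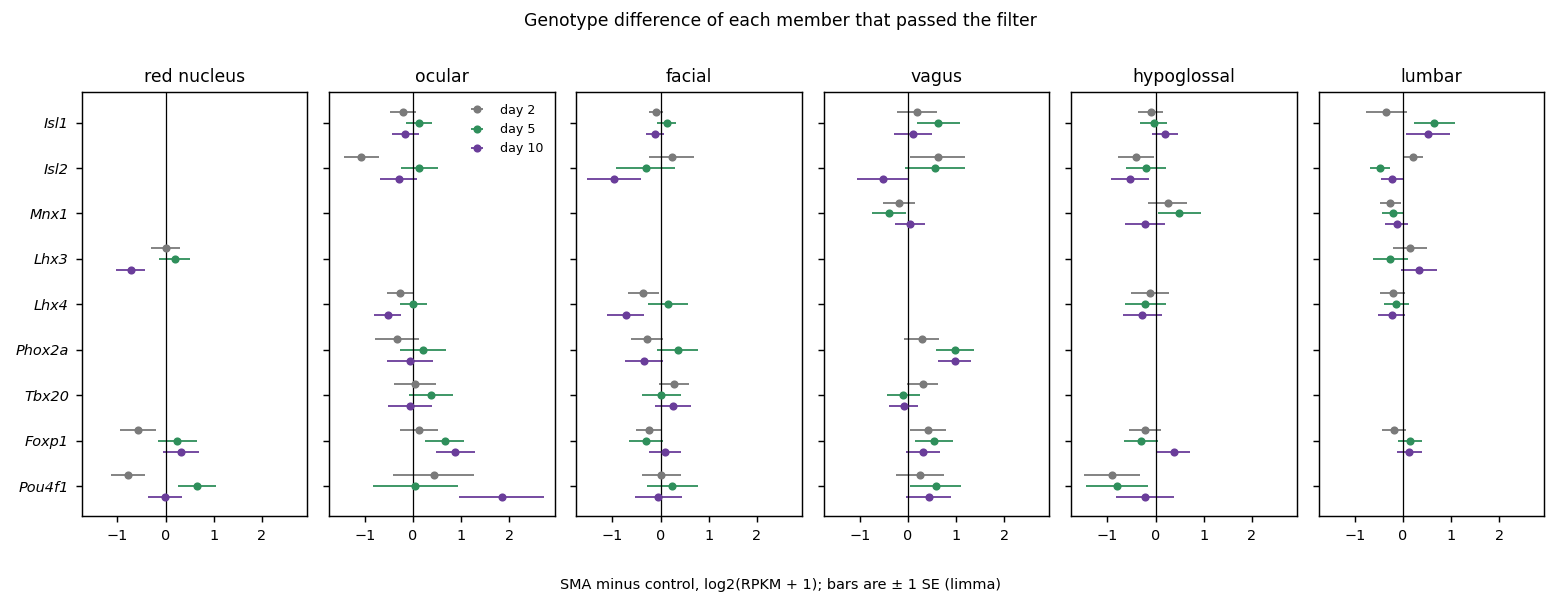
SMA minus control difference of each member that passed the filter, on the log2(RPKM + 1) scale with ± 1 SE from limma, at days 2 (grey), 5 (green) and 10 (purple) in each population. No difference passed the adjusted threshold, and Pou4f1 of ocular neurons at day 10 lies farthest from 0, at 1.84 ± 0.88.

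Phox2a of vagus neurons had a higher estimate in SMA on all 3 days. Day 5 controls had 5.78, 5.92, 6.91 and 7.80 RPKM and SMA mice 9.52, 15.1 and 18.2, without overlap (0.97 ± 0.39, unadjusted p 0.0193, limma adjusted p 0.905). Day 10 controls had 5.45, 5.48, 11.5 and 15.8 and SMA mice 13.1, 14.3, 14.7, 20.7 and 32.1, with 3 of 5 SMA samples under the highest control (0.97 ± 0.34, unadjusted p 0.00898, adjusted p 0.909). With 1 mouse left out the day 10 difference ran from 0.77 to 1.23. The noradrenaline enzyme Dbh, at 3.49 to 58.7 in day 10 controls and 36.3 to 91.2 in SMA, was higher in range, while Th was at 42.7 to 92.1 in controls and 30.4 to 88.7 in SMA, and the summed level of the 4 dopamine and noradrenaline genes was 72.1 to 139 and 86.6 to 193. On day 5 those sums were 36.6 to 98.0 in controls and 32.1 to 110 in SMA. Their part in the Phox2a values was not tested.

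Pou4f1 of ocular neurons rested on few mice. Day 10 controls had 0, 0.532, 1.11 and 4.19 RPKM and SMA mice 0, 2.31, 4.98, 16.4 and 57.4, a difference of 1.84 ± 0.88 (unadjusted p 0.0459, limma adjusted p 0.837). The 57.4 was mouse 250, which in the same sample had 119 RPKM of Slc17a6, 25.2 of Foxa2, 7.25 of Emx2 and 3.72 of Foxa1, with Chat at 18.7. The other 27 ocular samples had 0.0411 to 28.1 of Slc17a6 (median 10.7) and 0 to 13.1 of Foxa2 (median 2.36), both below mouse 250. Their highest values of Emx2 (8.49) and Foxa1 (3.87) lay above that mouse. The summed level of the 10 midbrain and red nucleus factors was 8.14 to 39.2 in ocular SMA samples at day 10 and 1.37 to 5.83 in controls. Without mouse 250 the Pou4f1 difference was 1.09 ± 0.83 (unadjusted p 0.198). Lhx3, which red nucleus also held at a low level at day 10, had means of 0.847 in SMA and 0.907 in control ocular samples of that day. Foxp1, present in red nucleus and in every other population, had a day 10 difference of 0.88 ± 0.41 in ocular neurons (unadjusted p 0.04, adjusted p 0.823). Without mouse 250 it was 0.57 ± 0.40. The part of the glutamate and midbrain genes in the Pou4f1 values was not tested.

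**Figure D5:**
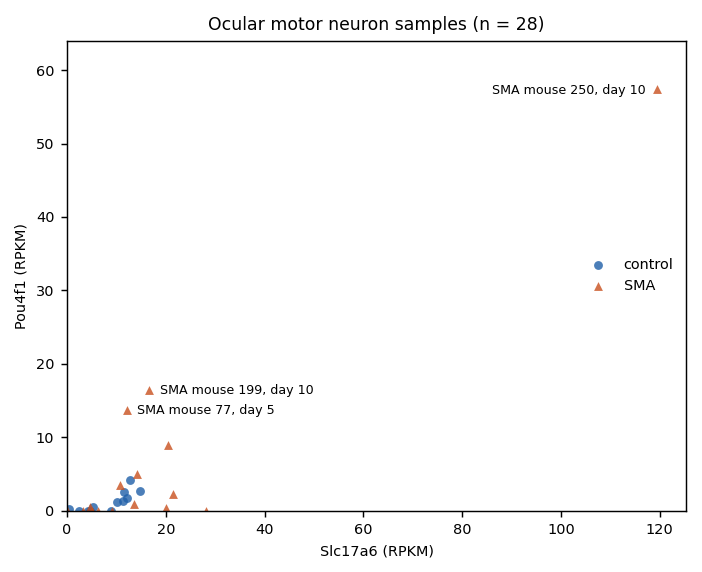
Pou4f1 against the glutamate transporter gene Slc17a6, both in RPKM on linear axes, in the 28 ocular samples of all days. Blue circles are controls and orange triangles SMA samples; the SMA sample of mouse 250 at day 10 lies apart from the others in both genes.

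The other nominal differences were in Isl2, Lhx3 and Pou4f1. Isl2 of ocular neurons at day 2 was at 0, 1.17, 3.75 and 4.02 RPKM in controls and at 0 in 4 of 6 SMA mice, with 0.751 and 1.46 in the others (-1.07 ± 0.37, unadjusted p 0.00725, limma adjusted p 0.265). This was the lowest adjusted p of any member, and without control mouse 28 the difference was -0.77. Isl2 of lumbar neurons at day 5 was at 14.98, 20.4, 21.2, 22.1 and 36.1 in controls and 13.3, 14.0, 14.5, 17.3 and 19.4 in SMA (-0.48 ± 0.21, adjusted p 0.561); without control mouse 29, the highest, it was -0.31. All 5 of these control libraries also hold reads of an earlier deposit, so that genotype and this pooling cannot be told apart there. Pou4f1 of red nucleus at day 2 was at 134, 147, 192 and 247 in SMA against 173 to 528 in controls (-0.78 ± 0.36, adjusted p 0.51), and without control mouse 26 the difference was -0.51. In these samples Mbp was at 10.1 to 19.4 in SMA and 0.139 to 3.74 in controls, and Th at 0 to 27.8 in SMA and 0 to 96.3 in controls. The part of either gene in the Pou4f1 values was not tested. Lhx3 of red nucleus at day 10 differed by -0.73 ± 0.29 (adjusted p 0.722), and by -0.49 without SMA mouse 196. In all 4 of these differences the groups overlapped. The day 10 controls alone were enough to take Lhx3 past the filter in red nucleus. Its difference there is thus drawn from the group that admitted it to the test. The value of control mouse 252 also lay under the floor of 3 reads, 5.29 RPKM in that library.

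The lists of related factors and pathway genes held 1 call between genotypes. Among 345 tests of the 25 other motor neuron factors 1 passed, the LIM cofactor Ldb1 in hypoglossal neurons at day 2 (1.54 ± 0.27, limma adjusted p 0.0247). Of all gene tests between genotypes 0.129% were called. The cholinergic list had 0 of 105 calls, with a median of -0.06, the retinoid list 0 of 54, and the midbrain and red nucleus list 0 of 78, while the median over all genes lay between -0.01 and 0.13 in these contrasts. The lists of other cell types held 2 calls, both higher in SMA: the myelin gene Mbp in red nucleus at day 2 (2.22 ± 0.37, adjusted p 0.0351) and the astrocyte gene Gfap in facial neurons at day 10 (2.81 ± 0.54, adjusted p 0.00742).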

How the data were processed

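Neurons were stained, cut by laser at about 150 cells a tube and sequenced as polyA RNA by Smart-seq2, per the labels' protocols. STAR 2.4.1c and the builds mm10 and hg19 are named in the submitters' processing notes; the counting step and its annotation are not given in the sources used here. The authors deposited RPKM values, so no count test was run. Per the labels, 5 lumbar control libraries of day 5 hold reads pooled with an earlier deposit. Libraries of the same mouse and population were averaged. Depth was recovered from read steps of 17340 single-transcript genes of GENCODE M21, where 65.3 to 78.8% of values under 20 reads were whole within 0.02; floors of 3 reads cover counting error only.

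limma 3.58.1 (R 4.3.3, trended prior) was fitted to log2(RPKM + 1) on all genes with an RPKM of at least 1 in as many samples as the smallest group held, within each population for day and genotype, and within each genotype for populations. P-values are two-sided and adjusted per contrast, with a threshold of 0.05. Python 3.11.15, numpy 2.4.6, pandas 2.3.3 and matplotlib 3.10.9 did the rest. The fits were tested on simulated data. Alternatives were a pseudocount of 0.1, no filter, quantile normalization, libraries as samples, no trend, other sample sets, each mouse left out and the mouse as a block. Samples of the same mouse deviated together little in most pairs (median r 0.033 over 339 pairs, against -0.0068 over 1480 pairs of other mice). An r over 0.1 was found in 8.26% of pairs of the same mouse and in 0.743% of the others. The highest r was 0.292 and 0.214. Mouse numbers in the labels name the same animal. The members and lists were chosen with earlier results of these data known. Named genes are the members, Smn1, list genes called in 2 populations with age or in any genotype contrast, the 3 highest genes of each list, and the 3 most correlated genes of each member with a control mean of at least 5 RPKM. Of those, 2 genes are not reported here, and 1 of them was left out of its list and its sums. Foxp1 is the first of 3 rows.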

Additional observations from a re-analysis of the deposited data

Results flagged for a closer look

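In 7 of 120 groups of 4 to 7 mice 1 sample stood apart from the rest by Dixon's criterion, where chance gives about 5%. Isl1 was high in the hypoglossal sample of control mouse 71 at day 5, at 131.1 RPKM with the next at 91.7. It was low in the lumbar sample of SMA mouse 206 at day 2, at 11.4 with the next at 43.4. Isl2 of facial controls at day 10 was lowest in mouse 247, at 5.33 beside 5.96. Lhx4 of lumbar controls at day 2 was highest in mouse 240, at 7.06 beside 4.495. Foxp1 of vagus SMA neurons at day 2 reached 30.8 in mouse 207, with the next at 15.6. Pou4f1 reached 57.4 in the ocular sample of SMA mouse 250 at day 10, with the next at 16.4, and 290.9 at day 10 in red nucleus neurons of control mouse 247, with the next at 112.9.

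The age change of a member differed between 2 populations in 17 of 270 tests (limma, adjusted p under 0.05), a comparison chosen after the data were seen. Of all gene tests 0.763% were called in controls and 0.829% in SMA. Differences are the first population minus the second, on the log2(RPKM + 1) scale. In controls Lhx3 of red nucleus differed from facial (1.59), vagus (1.45) and hypoglossal neurons (1.48), all resting on values of at most 2.23 RPKM. The red nucleus controls of day 10, where Lhx3 was high, were alone enough to take it past the filter. Isl1 differed between red nucleus and lumbar (2.68) and between vagus and lumbar neurons (2.12). Red nucleus held almost no Isl1, and its highest control value, 5.32 RPKM at day 10, came from mouse 252 of the shallowest library. Isl2 (-2.87) and Lhx4 (-1.85) differed between ocular and facial neurons. Isl2 of ocular controls was low, with means of 2.23 RPKM at day 2 and 0.457 at day 10. Foxp1 differed between ocular and lumbar (2.28) and between vagus and lumbar neurons (2.35).

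In SMA Lhx4 of ocular neurons differed from facial (-1.74), hypoglossal (-1.72) and lumbar neurons (-1.99), and Lhx4 of vagus neurons differed from lumbar ones (-1.65). Foxp1 differed between ocular and lumbar (2.72), vagus and lumbar (1.94) and hypoglossal and lumbar neurons (2.09). Mnx1 differed between vagus and lumbar neurons (-1.11). Whether these differences between populations themselves differ between genotypes was not tested.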

How the results depend on the processing

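The 0 calls between SMA and control and the 0 calls for a change of that difference with age stayed at 0 in all 43 and all 33 alternatives run. Age calls ran in controls from 9 to 12 with 1 mouse left out and from 8 to 13 under other settings, against 12. In SMA they ran from 5 to 8 and from 6 to 8, against 8, and the 5 came without mouse 250; the cause was not tested. Of the 20 age calls 11 were kept in every alternative, 4 were lost in 1 to 3 and 5 in more than 3, and 0 reversed. The 5 were Isl1 of lumbar and Lhx4 of ocular SMA neurons, Isl2 and Lhx4 of facial controls and Pou4f1 of red nucleus controls (adjusted p 0.0931 without mouse 26 and 0.0672 without mouse 252). Isl1 of hypoglossal SMA neurons was lost without mouse 250 (-0.84, limma adjusted p 0.0678) or mouse 258 (-0.85, adjusted p 0.0663). Fitting only the groups compared ended the calls of Foxp1 in red nucleus (adjusted p 0.147) and of Isl1 (0.0709) and Isl2 (0.0548) in lumbar controls. Population calls ran from 87 to 93 in controls and from 86 to 89 in SMA with 1 mouse left out. With the mouse as a replicate block they were 92 against 91 in controls and 88 against 89 in SMA; Phox2a of ocular and lumbar controls (adjusted p 0.0587) and Lhx3 of facial and lumbar SMA neurons (0.0535) were lost. Depth limits values near 0: the red nucleus value of Lhx3 in mouse 252, for example, lay under the floor of 3 reads.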

Other observations

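In the 4 mice with separate libraries of both ocular nuclei, Isl1 was the higher in the trochlear nucleus each time: 117 RPKM against 113 in oculomotor neurons of control mouse 30, 88.1 against 65.4 of control mouse 75, 69.6 against 66.7 of control mouse 254 and 67.4 against 58.1 of SMA mouse 196. Pou4f1 was the higher in the oculomotor nucleus of all 4, at 3.48 against 0, 5.22 against 0.150, 0.629 against 0.435 and 7.37 against 2.58. Tbx20 had no common direction, at 7.72 against 4.33, 5.46 against 5.37, 2.90 against 4.22 and 1.39 against 4.66 in oculomotor and trochlear neurons. These are 8 libraries of 2 ages and 2 genotypes, and no test was made.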
